A study of Mus musculus with 24 samples.

Results

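The collagen genes are the rows of a mouse liver count table whose symbol is Col, a type number, the letter a and a chain number, and that had at least 10 counts in at least 6 of 24 libraries. Of 49315 genes in the table, 44 have such a symbol and 34 were kept, all of which entered the tests. The kept genes were 9 of fibrillar type, 8 of basement membranes, 5 of FACIT type, which are collagens that sit on the surface of fibrils, and 12 of other types. The 10 left out were Col2a1, Col6a4, Col7a1, Col9a1, Col9a2, Col19a1, Col22a1, Col24a1, Col26a1 and Col28a1, none of which exceeded 45 counts in any library. The genes just outside the limit were Col7a1, with 10 counts in 5 libraries, and Col26a1, with 10 counts in 4. The genes just inside it were Col9a3, in 7 libraries, and Col11a1, in 9.

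The libraries came from liver tissue of 4 groups with 6 libraries each. Mdr2-/- tumour livers and wild-type tumour livers are labelled as carrying AKT and YAP1, put into the genome with a transposon, and as bearing cholangiocarcinoma, a cancer of bile duct cells. Mdr2-/- control livers and wild-type control livers had an empty transduction and no tumour, and the wild-type controls are called healthy. Mdr2-/- livers lack Abcb4, also named Mdr2, the transporter that moves phospholipid into bile and whose loss leaves the bile ducts exposed to injury and the liver prone to scarring. No source used here gives the strain, the age, the promoter or the time after transduction. The tissue is tumour-bearing liver and not isolated tumour, so its RNA comes from tumour cells, liver cells and the cells between them. In such bulk samples fewer cells of a type and less RNA per cell cannot be told apart.

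Collagens are trimeric matrix proteins that share a triple helix. Fibrillar collagens assemble into the ropes that make up scar tissue, type IV collagens form the sheet of basement membranes, FACIT collagens link fibrils to their surroundings, and type VI collagens make fine beaded filaments. In injured liver, stellate cells and fibroblasts of the portal tracts turn into myofibroblasts that deposit types I and III, while each bile duct and each blood vessel rests on a basement membrane of its own.

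The libraries held 20976459 to 30288385 counts each. Levels of a gene across groups are CPM, counts per 1000000 after TMM scaling, and levels between genes are the deposited TPM, which correct for length. Class sums across groups are also in TPM, without TMM scaling. On TPM the median change of all genes between groups moved by 0.10 to 0.45. Changes are log2 fold changes ± SE from 1 edgeR quasi-likelihood model of all 24 libraries with 17216 genes tested, and a gene is said to have risen or fallen at a Benjamini-Hochberg adjusted p under 0.05. The sources describe individual tissues but do not say that each came from a different mouse, so the p-values cover only the spread between these libraries. Abcb4 was at 21.7, 25.9 and 59.3 CPM in Mdr2-/- tumour livers, against 23.8, 31.3 and 41.6 CPM in Mdr2-/- control livers as the lowest, median and highest of 6 libraries, the order used for all levels given as 3 values. It was at 165, 215 and 361 CPM in wild-type tumour livers, against 244, 274 and 378 CPM in wild-type control livers, so that every library fitted its genotype label. Counts of the mouse gene Akt1 rose in both tumour groups, by 0.90 ± 0.25 (adjusted p = 0.00958) in Mdr2-/- and 1.51 ± 0.26 (adjusted p = 0.000103) in wild type. Counts of the mouse gene Yap1 did not follow the tumour label. They were at 40.7, 52.5 and 58.6 CPM in Mdr2-/- tumour livers, against 59.1, 72.4 and 86.3 CPM in Mdr2-/- control livers, with every tumour library below every control and a change of -0.51 ± 0.15 (adjusted p = 0.0137), and at 40.2, 48.0 and 77.5 CPM in wild-type tumour livers, against 48.6, 52.9 and 78.4 CPM in wild-type control livers, with a change of -0.12 ± 0.15 (adjusted p = 0.6). Whether reads of the introduced AKT and YAP1 were counted under these genes is not stated. On the first 2 principal components, with 36.4% and 20.9% of the variance, 1 library of each tumour group lay apart from its group. Mdr2-/- tumour library 1 was at -7.70 on the first, the other 5 at -41.0 or below. Wild-type tumour library 6 was at -40.6 on the second, the other 5 at 9.82 or above. Without these 2 libraries 10 of 93 called values of collagen genes missed the threshold, and each is given beside its gene.

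Collagen genes together took 0.169 to 0.233% of the counts in Mdr2-/- tumour livers and 0.133 to 0.235% in Mdr2-/- control livers. The share was 0.0959 to 0.204% in wild-type tumour livers and 0.0624 to 0.112% in wild-type control livers. In TPM, fibrillar collagens summed to 187.8 ± 27.9 in Mdr2-/- tumour livers, 113.8 ± 45.2 in Mdr2-/- control livers, 94.6 ± 54.3 in wild-type tumour livers and 16.0 ± 1.61 in wild-type control livers (SD, n = 6 each). All wild-type control libraries lay at 18.9 TPM or below for this sum, and every library of the other groups at 56.1 TPM or above. As a share of collagen TPM the fibrillar class was 35.3 ± 1.17%, 22.0 ± 7.46%, 26.3 ± 8.40% and 7.62 ± 2.29% in the same order. The other types followed the same order of group means, with 58.7 ± 14.1, 42.2 ± 14.6, 22.5 ± 11.2 and 8.53 ± 1.04 TPM. FACIT collagens summed to 55.3 ± 4.22, 56.2 ± 6.10, 46.9 ± 8.37 and 27.9 ± 3.6 TPM, and only the wild-type controls, at 24.8 to 33.7 TPM, lay apart from the rest. Basement membrane collagens were the largest class in all 4 groups, with 230.8 ± 46.7, 314.4 ± 128.6, 199.0 ± 111.1 and 173.2 ± 66.8 TPM, and their ranges overlapped between all groups. Summed in CPM, the mean of this class was lower in wild-type tumour than in wild-type control livers, the reverse of the order in TPM. Col18a1 alone gave 24.6% of collagen TPM in Mdr2-/- tumour livers, 46.1% in Mdr2-/- control livers, 42.1% in wild-type tumour livers and 70.4% in wild-type control livers.

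**Figure D1:**
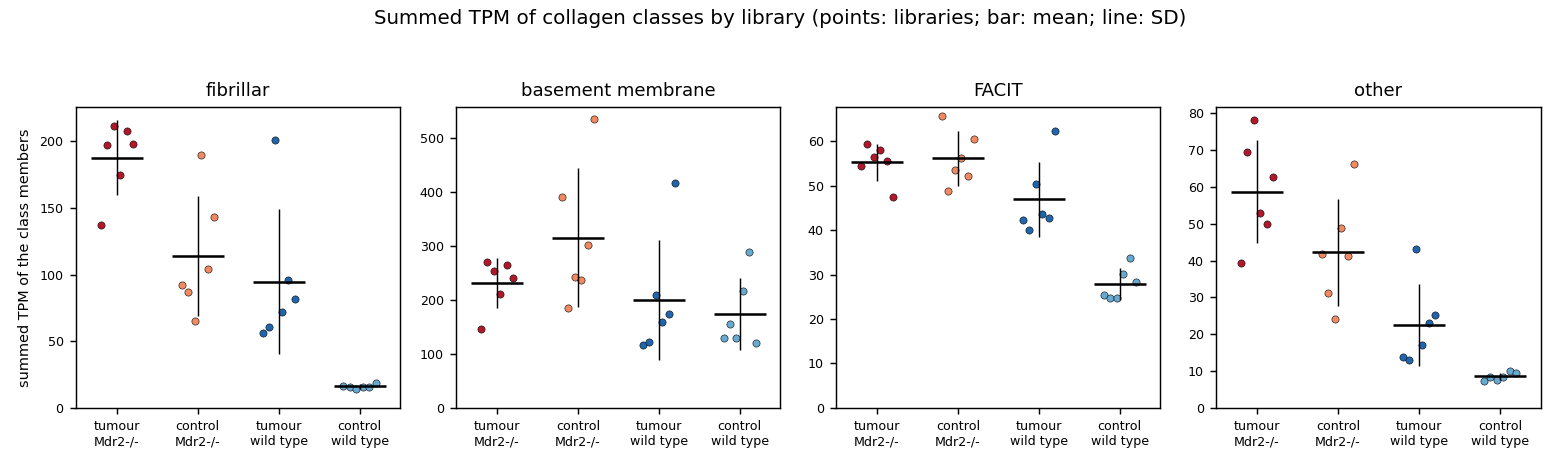
Summed TPM of the 4 collagen classes (y axis, linear) in each library (points) of the 4 groups, with the mean (bar) and SD (line, n = 6). Fibrillar sums in wild-type control livers, 14.1 to 18.9 TPM, lie below every library of the other groups, while basement membrane sums overlap between all groups.

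Mdr2-/- control livers differed from wild-type control livers in most collagen genes. Of the 34, 23 rose and 4 fell, against 26.2% and 24.3% of all genes tested, and the median change was 1.43 with a median of 0.03 over all genes. In 19 genes every Mdr2-/- control library lay above every wild-type control library, and in 1 below, against 13.7% and 10.6% of all genes. The 1 below was Col25a1, also among the 4 that fell, and it met the rule of 10 counts only with the wild-type control libraries. Wild-type tumour livers showed a rise of 21 collagen genes and a fall of 0 over wild-type control livers, against 16.9% and 11.5% of all genes, with a median change of 1.10 and 0.03 over all genes. At an unadjusted p under 0.05 edgeR also found 0 collagen genes lower there, and DESeq2 called 0 lower. In 13 genes every library of the tumour group was the higher, against 7.27% of all genes, and in 0 the lower, against 3.49%. Both comparisons use the wild-type controls. Mitochondrial genes took 3.90 to 5.003% of the counts in Mdr2-/- control livers and 5.97 to 9.21% in wild-type control livers, without overlap, and 4.28 to 7.27% in wild-type tumour livers. The part of this share in the collagen results was not tested.

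Between Mdr2-/- tumour livers and Mdr2-/- control livers 12 collagen genes rose and 3 fell, against 17.9% and 17.0% of all genes, and the median change was 0.43 with 0.04 over all genes. With the share of nuclear noncoding RNA as a covariate, which was 4.60 to 7.95% of counts in Mdr2-/- tumour livers and 1.74 to 4.29% in Mdr2-/- control livers, 8 of the 12 rises and all 3 falls were lost, and the calls over all genes came to 960 in place of 5995. Every library was higher in 7 of the genes and lower in 1, against 7.38% and 7.62% of all genes. Col9a3 and Col11a1, among both the 12 and the 7, met the rule of 10 counts only with the Mdr2-/- tumour libraries. The tumour effect was smaller in Mdr2-/- than in wild type for 12 collagen genes and larger for 2 by the test of the difference itself, against 13.4% and 11.9% of all genes, with a median difference of -0.55 and -0.04 over all genes. Of the 2, Col25a1 met the rule of 10 counts only with the wild-type control libraries. Of 13 genes that rose in wild-type tumour livers and were not called in Mdr2-/- tumour livers, 10 had a called difference, and Col6a5, Col23a1 and Col27a1 did not. Risen in both tumour comparisons were 8 genes, Col3a1, Col4a5, Col5a2, Col6a3, Col8a1, Col12a1, Col15a1 and Col16a1, which are 8 of the 12 in Mdr2-/- and 8 of the 21 in wild type. Between the tumour groups themselves 15 genes were higher in Mdr2-/- and 1 lower, against 7.13% and 4.0% of all genes, with a median of 0.71 and -0.02 over all genes. In 6 of them every Mdr2-/- tumour library was the higher, against 2.30% of all genes, and in 0 the lower, against 1.39%. Col8a2, among both the 15 and the 6, and Col9a3, among the 15, met the rule of 10 counts only with the Mdr2-/- tumour libraries. The calls of 9 of the 16 genes, Col1a2, Col3a1, Col4a1, Col5a2, Col6a1, Col6a6, Col8a2, Col9a3 and Col13a1, were lost in 1 to 14 of the 24 fits that each left out 1 library.

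**Figure D2:**
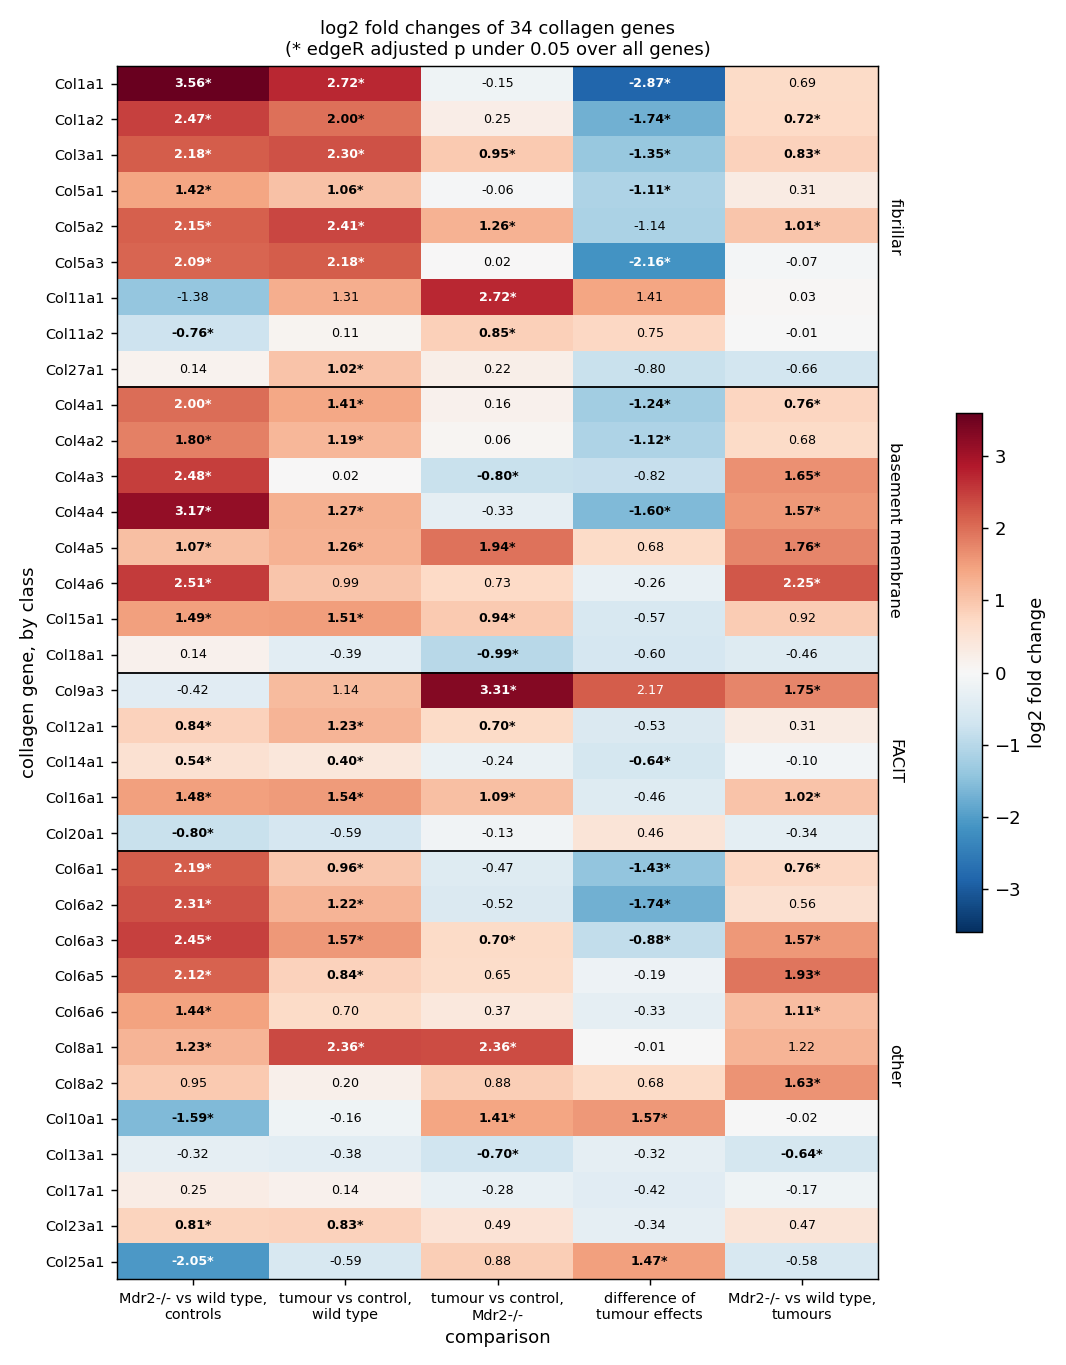
Log2 fold changes (colour and number) of the 34 collagen genes (rows, by class) in 5 comparisons (columns), with an asterisk at an edgeR adjusted p under 0.05 over all genes. Col1a1 has 3.56 between the control groups, 2.72 between tumour and control livers of wild type and -0.15 between those of Mdr2-/-.

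Of the 9 fibrillar genes, 4 rose in Mdr2-/- tumour livers, 7 in wild-type tumour livers, 6 in Mdr2-/- controls, where 1 fell, and 3 between the tumour groups. Their median changes were 0.25, 2.00, 2.09 and 0.31 in that order. The 2 chains of type I collagen, the main protein of scar fibrils, covered overlapping ranges in the Mdr2-/- groups and separate ones in the wild-type groups. Col1a1, which encodes the chain present in 2 copies per molecule, was at 50.8, 72.9 and 121 CPM in Mdr2-/- tumour livers, against 38.7, 80.4 and 136 CPM in Mdr2-/- control livers. It was at 20.7, 34.5 and 108 CPM in wild-type tumour livers, against 5.42, 7.53 and 9.64 CPM in wild-type control livers. The Mdr2-/- groups overlapped, and every wild-type tumour library lay above every wild-type control. The tumour effect was -0.15 ± 0.34 (adjusted p = 0.758) in Mdr2-/- and 2.72 ± 0.37 (adjusted p = 8.24e-06) in wild type, and their difference was -2.87 ± 0.50 (adjusted p = 0.00041). Between the control groups the change was 3.56 ± 0.39 (adjusted p = 1.07e-07), the largest of the 34 genes there, and between the tumour groups it was 0.69 ± 0.35 (adjusted p = 0.222). Without wild-type tumour library 3 the last value was 1.09 (adjusted p = 0.0219).

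Col1a2, the partner chain, was at 63.0, 86.5 and 114 CPM in Mdr2-/- tumour livers, against 47.2, 65.2 and 110.2 CPM in Mdr2-/- control livers. It was at 30.6, 44.0 and 105 CPM in wild-type tumour livers, against 11.1, 13.3 and 15.4 CPM in wild-type control livers. As with Col1a1 only the wild-type groups were free of overlap. Tumour livers differed from controls by 0.25 ± 0.24 (adjusted p = 0.408) in Mdr2-/- and by 2.00 ± 0.25 (adjusted p = 1.99e-06) in wild type, with a difference of -1.74 ± 0.34 (adjusted p = 0.00102). The genotype change was 2.47 ± 0.25 (adjusted p = 3.72e-08) in controls and 0.72 ± 0.24 (adjusted p = 0.0484) in tumour livers, and the last call was lost in 14 of the 24 fits that each left out 1 library. In TPM, Col1a1 over Col1a2 was 1.72 ± 0.33 in Mdr2-/- tumour livers, 2.21 ± 0.51 in Mdr2-/- control livers, 1.64 ± 0.47 in wild-type tumour livers and 1.06 ± 0.17 in wild-type control livers (SD, n = 6 each).

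Col3a1, the single chain of type III collagen, which forms thin fibrils together with type I, was the most abundant fibrillar gene in every group by TPM. It was at 443, 497 and 514 CPM in Mdr2-/- tumour livers, against 164, 213 and 484 CPM in Mdr2-/- control livers. It was at 131, 241 and 501 CPM in wild-type tumour livers, against 38.2, 53.8 and 73.8 CPM in wild-type control livers. In Mdr2-/- the 1 control library at 483.5 CPM reached into the tumour group, and the other 5 lay below it. Col3a1 rose in Mdr2-/- tumour livers, by 0.95 ± 0.25 (adjusted p = 0.00699), as well as in wild-type ones, by 2.30 ± 0.26 (adjusted p = 5.9e-07). The difference between these effects was -1.35 ± 0.36 (adjusted p = 0.00902). The genotype change was 2.18 ± 0.26 (adjusted p = 5.08e-07) in controls and 0.83 ± 0.25 (adjusted p = 0.0326) in tumour livers, where it was 0.67 (adjusted p = 0.0704) without the 2 libraries that lay apart. The TPM ratio of Col3a1 to Col1a1 was 4.41 ± 1.32 in Mdr2-/- tumour livers, 2.10 ± 0.77 in Mdr2-/- control livers, 4.99 ± 2.53 in wild-type tumour livers and 5.30 ± 2.02 in wild-type control livers.

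The windows around the annotated starts of Col1a2 and Col3a1 are shown because the results on scar-forming collagen turn on these genes. They run from 250 bases before to 50 after the start, are from RefSeq on GRCm38.p6 and lie on the plus strand at chr6:4505368-4505667 and chr1:45311288-45311587. Capitals mark matches, on either strand, to TATAAA, which lies near many starts, to CCAAT, the GC box GGGCGG, the element GGAATG bound by TEAD, the partner of YAP1, or the element TGANTCA bound by AP-1.
Col1a2: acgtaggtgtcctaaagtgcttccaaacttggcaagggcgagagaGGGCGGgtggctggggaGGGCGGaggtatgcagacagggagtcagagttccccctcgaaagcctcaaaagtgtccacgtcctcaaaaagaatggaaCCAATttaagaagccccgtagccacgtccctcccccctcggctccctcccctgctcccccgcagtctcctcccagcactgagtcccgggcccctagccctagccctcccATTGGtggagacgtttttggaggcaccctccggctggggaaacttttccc
Col3a1: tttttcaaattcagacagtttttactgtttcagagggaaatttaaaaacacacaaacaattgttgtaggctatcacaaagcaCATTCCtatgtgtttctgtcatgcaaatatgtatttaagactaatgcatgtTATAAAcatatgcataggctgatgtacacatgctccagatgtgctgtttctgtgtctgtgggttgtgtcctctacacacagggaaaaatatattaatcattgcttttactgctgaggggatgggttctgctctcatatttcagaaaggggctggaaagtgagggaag
The Col1a2 window held 2 CCAAT and 2 GC box matches, and the Col3a1 window 1 TATAAA and 1 GGAATG. Windows were found for 28 of the 34 collagen genes, 30 in all. TATAAA was in 16.7% of them against 13.6% of 32851 windows of all genes, CCAAT in 33.3% against 37.4%, GGGCGG in 66.7% against 35.7%, GGAATG in 16.7% against 14.7% and TGANTCA in 3.33% against 7.81%. These letter matches describe the windows and carry no test.

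Type V collagen sits inside type I fibrils and sets their width. Col5a2, which on mouse chromosome 1 neighbours Col3a1, was at 34, 36.4 and 48.5 CPM in Mdr2-/- tumour livers, against 11.4, 12.8 and 31.2 CPM in Mdr2-/- control livers. It was at 9.18, 12.4 and 40.4 CPM in wild-type tumour livers, against 2.53, 3.71 and 4.36 CPM in wild-type control livers. Every library of each tumour group lay above every control of its genotype. Col5a2 rose by 1.26 ± 0.30 (adjusted p = 0.00332) in Mdr2-/- and by 2.41 ± 0.32 (adjusted p = 5.58e-06) in wild type, with a difference of -1.14 ± 0.43 (adjusted p = 0.0523), and by 2.15 ± 0.32 (adjusted p = 9.41e-06) between control groups. Between tumour groups it was 1.01 ± 0.30 (adjusted p = 0.029), and 0.92 (adjusted p = 0.0612) without the 2 libraries that lay apart.

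Col5a3, a rarer chain of the same type, was at 2.14, 2.51 and 4.29 CPM in Mdr2-/- tumour livers, against 1.76, 2.59 and 4.04 CPM in Mdr2-/- control livers. It was at 2.60, 2.98 and 3.57 CPM in wild-type tumour livers, against 0.387, 0.637 and 0.959 CPM in wild-type control livers. All 3 groups other than the wild-type controls covered a like range, and the wild-type controls lay below them all. Its tumour effect was 0.02 ± 0.23 (adjusted p = 0.959) in Mdr2-/- and 2.18 ± 0.26 (adjusted p = 8.19e-07) in wild type, with a difference of -2.16 ± 0.34 (adjusted p = 0.000128). Col5a1 averaged 20.3 ± 2.91 and 21.1 ± 6.62 CPM in Mdr2-/- tumour and control livers and 16.4 ± 6.91 and 7.86 ± 2.05 CPM in wild-type tumour and control livers, with effects of -0.06 ± 0.23 (adjusted p = 0.868) and 1.06 ± 0.23 (adjusted p = 0.00151) and a difference of -1.11 ± 0.33 (adjusted p = 0.016), or -0.91 (adjusted p = 0.0529) without the 2 libraries that lay apart. By TPM, Col5a1 over Col5a2 was 0.608 ± 0.103 in Mdr2-/- tumour livers, 1.64 ± 0.59 in Mdr2-/- control livers, 1.18 ± 0.59 in wild-type tumour livers and 2.71 ± 1.31 in wild-type control livers, and the Mdr2-/- groups did not overlap.

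The remaining fibrillar genes are known best from cartilage and were at low levels. Col11a1 was at 0.602, 0.684 and 1.07 CPM in Mdr2-/- tumour livers, against 0, 0.102 and 0.234 CPM in Mdr2-/- control livers, and 1 control library had 0 counts, which allows up to 3 counts or 0.113 CPM. It was at 0.138, 0.394 and 2.11 CPM in wild-type tumour livers, against 0.227, 0.259 and 0.493 CPM in wild-type control livers. Its highest count in any library was 62. All Mdr2-/- tumour libraries had at least 10 counts, and without them Col11a1 would not have been kept. It rose by 2.72 ± 0.57 (adjusted p = 0.0011) in Mdr2-/-, where every tumour library was the higher, and differed by 1.31 ± 0.52 (adjusted p = 0.0605) in wild type and by 1.41 ± 0.79 (adjusted p = 0.173) between these effects. Without wild-type tumour library 3 the difference was 2.11 (adjusted p = 0.0278). Col11a2 rose in Mdr2-/- tumour livers by 0.85 ± 0.30 (adjusted p = 0.0287) and was lower in Mdr2-/- than in wild-type controls, with a change of -0.76 ± 0.31 (adjusted p = 0.0421), at 0.200 to 1.06 CPM over all libraries. Both calls were lost without some single libraries. Col27a1, a fibrillar collagen of cartilage and other tissues, rose by 1.02 ± 0.25 (adjusted p = 0.00343) in wild-type tumour livers and was called in none of the other comparisons, with 0.22 ± 0.25 (adjusted p = 0.491) in Mdr2-/-.

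**Figure D3:**
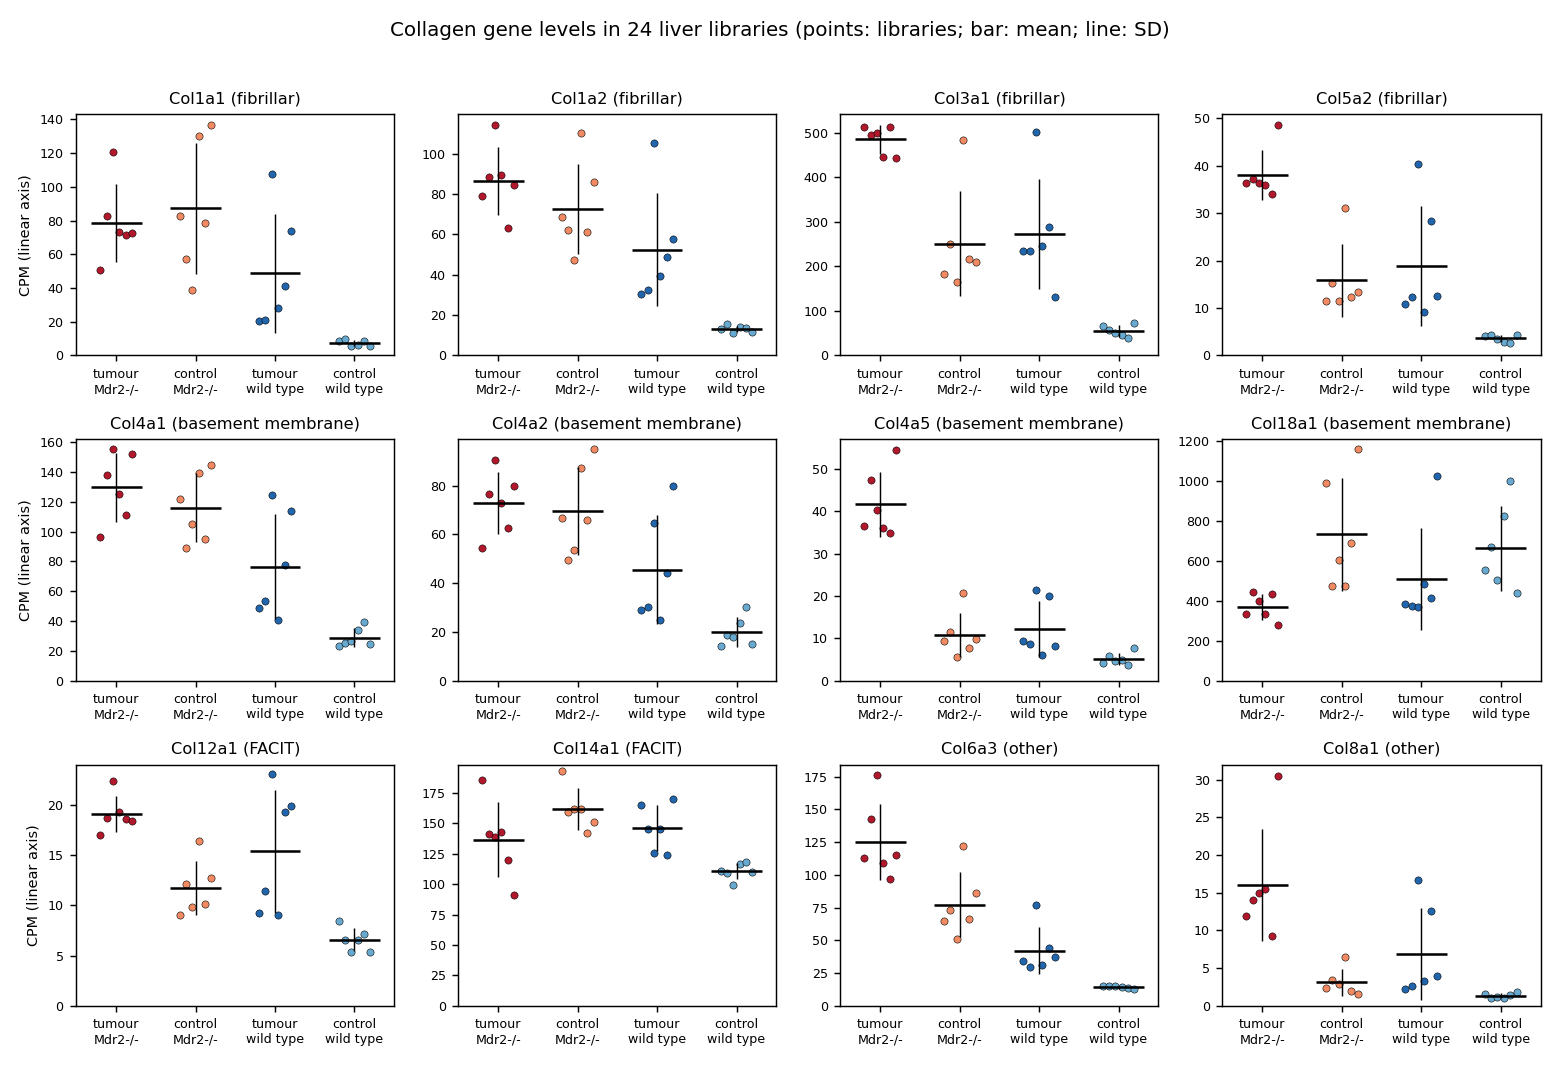
CPM (y axes, linear) of 12 collagen genes in each library (points) of the 4 groups, with the mean (bar) and SD (line, n = 6). Col1a1, Col1a2, Col4a1 and Col4a2 cover overlapping ranges in the 2 Mdr2-/- groups, whereas Col5a2, Col4a5, Col12a1 and Col8a1 are higher in every Mdr2-/- tumour library than in every Mdr2-/- control.

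Of the 8 basement membrane genes, 2 rose and 2 fell in Mdr2-/- tumour livers, 5 rose in wild-type tumour livers, 7 in Mdr2-/- controls and 5 between the tumour groups, with medians of 0.11, 1.22, 1.90 and 1.25. Col4a1, the chain present in 2 copies in the common type IV trimer, was at 96.6, 131 and 155 CPM in Mdr2-/- tumour livers, against 89.0, 113 and 145 CPM in Mdr2-/- control livers. It was at 40.5, 65.6 and 124 CPM in wild-type tumour livers, against 23.4, 26.1 and 39.3 CPM in wild-type control livers. Only the wild-type groups were free of overlap. The effects were 0.16 ± 0.22 (adjusted p = 0.59) in Mdr2-/- and 1.41 ± 0.23 (adjusted p = 6.82e-05) in wild type, with a difference of -1.24 ± 0.32 (adjusted p = 0.0075). Its genotype change was 2.00 ± 0.23 (adjusted p = 3.03e-07) in controls and 0.76 ± 0.23 (adjusted p = 0.0288) in tumour livers.

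Col4a2, which completes that trimer, was at 54.5, 74.7 and 90.3 CPM in Mdr2-/- tumour livers, against 49.5, 66.3 and 94.8 CPM in Mdr2-/- control livers. It was at 25.0, 37.3 and 79.9 CPM in wild-type tumour livers, against 14.2, 18.3 and 30.4 CPM in wild-type control livers. Wild-type tumour and control libraries overlapped at their edge, and the Mdr2-/- groups overlapped broadly. Its effects were 0.06 ± 0.25 (adjusted p = 0.858) in Mdr2-/- and 1.19 ± 0.25 (adjusted p = 0.000986) in wild type. The difference was -1.12 ± 0.35 (adjusted p = 0.0219), and -0.82 (adjusted p = 0.0795) without the 2 libraries that lay apart. The genotype change was 1.80 ± 0.26 (adjusted p = 4.78e-06) in controls. The TPM ratio of Col4a1 to Col4a2 stayed between 1.15 and 1.74 over all 24 libraries.

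Col4a1 and Col4a2 lie head to head on mouse chromosome 8. Their start windows are shown because the pair shares 78 of the 300 bases of each window, here in capitals, and the annotated transcribed parts overlap by 22 bases. The windows are at chr8:11312777-11313076 on the minus strand for Col4a1 and at chr8:11312555-11312854 on the plus strand for Col4a2, from RefSeq on GRCm38.p6, each written 5′ to 3′ on its own strand.
Col4a1: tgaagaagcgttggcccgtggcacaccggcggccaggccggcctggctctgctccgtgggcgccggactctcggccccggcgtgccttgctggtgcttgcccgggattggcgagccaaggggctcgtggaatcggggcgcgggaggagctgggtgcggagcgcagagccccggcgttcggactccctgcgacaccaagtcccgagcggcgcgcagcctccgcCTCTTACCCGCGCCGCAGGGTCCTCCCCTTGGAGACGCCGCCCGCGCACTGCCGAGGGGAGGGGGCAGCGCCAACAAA
Col4a2: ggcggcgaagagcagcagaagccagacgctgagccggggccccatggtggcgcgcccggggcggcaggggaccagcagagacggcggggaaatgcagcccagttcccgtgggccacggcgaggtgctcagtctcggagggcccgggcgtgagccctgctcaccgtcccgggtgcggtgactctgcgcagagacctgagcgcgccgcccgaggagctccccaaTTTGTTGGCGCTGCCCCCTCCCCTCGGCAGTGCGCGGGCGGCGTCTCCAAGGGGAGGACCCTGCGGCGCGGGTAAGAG
Reads of the overlapping bases cannot be assigned to either gene without strand, which the sources do not give. The collagen genes hold 6 pairs of neighbours in all, Col3a1 with Col5a2, Col4a3 with Col4a4, Col4a1 with Col4a2, Col4a5 with Col4a6, Col6a1 with Col6a2 and Col6a5 with Col6a6.

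The other type IV chains, which build the trimers of kidney filters and of some other epithelia, were less abundant and followed 2 patterns. Col4a3 was at 2.14, 3.09 and 5.11 CPM in Mdr2-/- tumour livers, against 2.10, 5.14 and 11.1 CPM in Mdr2-/- control livers. It was at 0.713, 1.08 and 1.19 CPM in wild-type tumour livers, against 0.681, 1.0 and 1.45 CPM in wild-type control livers. All Mdr2-/- libraries lay above all wild-type ones, with genotype changes of 2.48 ± 0.32 (adjusted p = 1.49e-06) in controls and 1.65 ± 0.32 (adjusted p = 0.0012) in tumour livers. In wild type the tumour effect was 0.02 ± 0.33 (adjusted p = 0.974), and in Mdr2-/- it was -0.80 ± 0.29 (adjusted p = 0.0359), which became -0.51 (adjusted p = 0.161) without Mdr2-/- control library 6 and -0.71 (adjusted p = 0.0722) without the 2 libraries that lay apart. The Mdr2-/- call was lost in 6 of the 24 fits that each left out 1 library.

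Col4a4, its neighbour and partner, was at 2.63, 3.12 and 4.71 CPM in Mdr2-/- tumour livers, against 2.06, 3.62 and 7.55 CPM in Mdr2-/- control livers. It was at 0.584, 1.04 and 1.90 CPM in wild-type tumour livers, against 0.383, 0.452 and 0.611 CPM in wild-type control livers. Again both Mdr2-/- groups lay above both wild-type groups. The genotype change was 3.17 ± 0.33 (adjusted p = 5.81e-08) in controls and 1.57 ± 0.30 (adjusted p = 0.00112) in tumour livers, and the tumour effect -0.33 ± 0.28 (adjusted p = 0.36) in Mdr2-/- and 1.27 ± 0.34 (adjusted p = 0.00642) in wild type, with a difference of -1.60 ± 0.44 (adjusted p = 0.0112).

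Col4a5, a chain of both kinds of trimer, was at 34.9, 38.4 and 54.4 CPM in Mdr2-/- tumour livers, against 5.61, 9.70 and 20.6 CPM in Mdr2-/- control livers. It was at 6.15, 9.0 and 21.3 CPM in wild-type tumour livers, against 3.75, 4.71 and 7.63 CPM in wild-type control livers. Every Mdr2-/- tumour library lay above every library of the other 3 groups. Col4a5 rose by 1.94 ± 0.29 (adjusted p = 5.49e-05) in Mdr2-/- and 1.26 ± 0.30 (adjusted p = 0.00259) in wild type, and by 1.07 ± 0.30 (adjusted p = 0.00434) and 1.76 ± 0.29 (adjusted p = 0.000331) between genotypes in control and in tumour livers. The difference of the tumour effects was 0.68 ± 0.41 (adjusted p = 0.213).

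Col4a6, which joins Col4a5 in a trimer of its own kind, was at 1.14, 2.79 and 4.17 CPM in Mdr2-/- tumour livers, against 0.949, 1.64 and 2.28 CPM in Mdr2-/- control livers. It was at 0.206, 0.486 and 1.19 CPM in wild-type tumour livers, against 0.110, 0.262 and 0.523 CPM in wild-type control livers. The control groups were free of overlap and the tumour groups touched. Genotype changed it by 2.51 ± 0.43 (adjusted p = 4.28e-05) in controls and 2.25 ± 0.38 (adjusted p = 0.000404) in tumour livers. Neither tumour effect was called, 0.73 ± 0.35 (adjusted p = 0.103) in Mdr2-/- and 0.99 ± 0.45 (adjusted p = 0.0982) in wild type.

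Col18a1, whose protein carries heparan sulphate and releases endostatin from its end, was the most abundant collagen gene by TPM in all 4 groups, and hepatocytes are a known source of it. It was at 277, 365 and 444 CPM in Mdr2-/- tumour livers, against 473, 646 and 1160 CPM in Mdr2-/- control livers. It was at 367, 399 and 1023 CPM in wild-type tumour livers, against 437, 609.9 and 996 CPM in wild-type control livers. Every Mdr2-/- tumour library lay below every Mdr2-/- control, a change of -0.99 ± 0.27 (adjusted p = 0.00744). With the share of nuclear noncoding RNA, which did not overlap between these groups, as a covariate the change was 0.10 (adjusted p = 0.813). In wild type the effect was -0.39 ± 0.26 (adjusted p = 0.29), but wild-type tumour library 6, at 1023 CPM, lay far above the other 5, and without it the effect was -0.71 (adjusted p = 0.0211). The difference of the effects was -0.60 ± 0.37 (adjusted p = 0.23), and between control groups Col18a1 differed by 0.14 ± 0.26 (adjusted p = 0.669). Summed hepatocyte markers were at 29980 to 58150 CPM in Mdr2-/- tumour livers and 78320 to 95890 CPM in Mdr2-/- control livers. They were at 52410 to 91320 CPM in wild-type tumour livers and 98940 to 129800 CPM in wild-type control livers. Tumour and control livers did not overlap in these sums in either genotype. The part of hepatocyte markers in the Col18a1 levels was not tested. Col18a1 has 2 annotated start windows, and counts per gene do not separate their transcripts.

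Col15a1, its close relative in vessel walls, averaged 27.2 ± 7.62 and 14.2 ± 4.13 CPM in Mdr2-/- tumour and control livers and 14.4 ± 10.9 and 5.04 ± 1.74 CPM in wild-type tumour and control livers. It rose by 0.94 ± 0.33 (adjusted p = 0.0319) in Mdr2-/- and 1.51 ± 0.35 (adjusted p = 0.00212) in wild type, and by 1.49 ± 0.35 (adjusted p = 0.00114) between control groups. The call in Mdr2-/- was lost when any of 6 single libraries was left out.

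Of the 5 FACIT genes, 3 rose in Mdr2-/- tumour livers, 3 in wild-type tumour livers, 3 in Mdr2-/- controls, where 1 fell, and 2 between the tumour groups, with medians of 0.70, 1.14, 0.54 and 0.31. Col12a1, found on fibrils of dense tissue, was at 17.0, 18.6 and 22.4 CPM in Mdr2-/- tumour livers, against 9.01, 11.1 and 16.5 CPM in Mdr2-/- control livers. It was at 9.05, 15.4 and 23.1 CPM in wild-type tumour livers, against 5.36, 6.57 and 8.49 CPM in wild-type control livers. Tumour and control libraries did not overlap in either genotype. It rose by 0.70 ± 0.20 (adjusted p = 0.0109) in Mdr2-/- and 1.23 ± 0.21 (adjusted p = 9.77e-05) in wild type, and by 0.84 ± 0.21 (adjusted p = 0.00182) between control groups. The difference of its tumour effects was -0.53 ± 0.29 (adjusted p = 0.171).

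Col16a1, a FACIT of several connective tissues, was at 7.96, 10.03 and 16.7 CPM in Mdr2-/- tumour livers, against 4.32, 4.89 and 6.81 CPM in Mdr2-/- control livers. It was at 2.95, 4.93 and 9.51 CPM in wild-type tumour livers, against 1.15, 1.81 and 2.3 CPM in wild-type control livers. Here too neither genotype showed overlap. Its rise was 1.09 ± 0.25 (adjusted p = 0.00228) in Mdr2-/- and 1.54 ± 0.26 (adjusted p = 0.00011) in wild type, and the genotype changes were 1.48 ± 0.26 (adjusted p = 7.46e-05) in controls and 1.02 ± 0.25 (adjusted p = 0.00802) in tumour livers.

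Col14a1, found on fibrils of softer tissue, was the most abundant FACIT gene by TPM and second only to Col18a1 in wild-type controls. It was at 91.1, 140.1 and 185 CPM in Mdr2-/- tumour livers, against 142, 160.3 and 193 CPM in Mdr2-/- control livers. It was at 124, 145 and 169.7 CPM in wild-type tumour livers, against 99.7, 110.5 and 118 CPM in wild-type control livers. All libraries of both wild-type tumour and Mdr2-/- control livers lay above all wild-type controls, though by small steps. The tumour effect was -0.24 ± 0.13 (adjusted p = 0.146) in Mdr2-/- and 0.40 ± 0.13 (adjusted p = 0.0245) in wild type, with a difference of -0.64 ± 0.18 (adjusted p = 0.015), and the change between control groups was 0.54 ± 0.13 (adjusted p = 0.00148). Without Mdr2-/- tumour library 1 the Mdr2-/- effect was -0.35 (adjusted p = 0.0378), and the wild-type call was lost when any of 3 libraries was left out, at 0.35 to 0.37.

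Col9a3, a chain of the cartilage FACIT type IX, was at 0.626, 0.849 and 1.28 CPM in Mdr2-/- tumour livers, against 0, 0.0729 and 0.200 CPM in Mdr2-/- control livers. It was at 0.0440, 0.211 and 0.679 CPM in wild-type tumour livers, against 0, 0.105 and 0.318 CPM in wild-type control livers. Its highest count was 43, and 2 control libraries had 0 counts, which allow up to 0.105 CPM in Mdr2-/- and 0.164 CPM in wild type. Every Mdr2-/- tumour library lay above every Mdr2-/- control, a rise of 3.31 ± 0.56 (adjusted p = 0.000138). All of these tumour libraries had at least 10 counts, and without them Col9a3 would not have been kept. In wild type the effect was 1.14 ± 0.62 (adjusted p = 0.165) and the difference of the effects 2.17 ± 0.88 (adjusted p = 0.0648), which was 2.73 (adjusted p = 0.0217) without wild-type tumour library 3. Between tumour groups it was 1.75 ± 0.48 (adjusted p = 0.0171). Col20a1 was at 0.204, 0.447 and 0.769 CPM in Mdr2-/- tumour livers, against 0.397, 0.496 and 0.668 CPM in Mdr2-/- control livers. It was at 0.375, 0.547 and 1.04 CPM in wild-type tumour livers, against 0.545, 0.964 and 1.21 CPM in wild-type control livers. It was lower in Mdr2-/- than in wild-type controls, with a change of -0.80 ± 0.31 (adjusted p = 0.0313) and overlap, a call lost without some single libraries and on the deposited TPM.

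Of the 12 genes of other types, 3 rose and 1 fell in Mdr2-/- tumour livers, 6 rose in wild-type tumour livers, 7 rose and 2 fell in Mdr2-/- controls, and 5 rose and 1 fell between the tumour groups, with medians of 0.57, 0.76, 1.09 and 0.66. Type VI collagens, with 5 genes, form filaments that surround cells and connect them to fibrils. Col6a1, a chain of every type VI molecule, was at 11.2, 18.4 and 25.1 CPM in Mdr2-/- tumour livers, against 12.4, 24.9 and 42.5 CPM in Mdr2-/- control livers. It was at 7.46, 9.77 and 14.9 CPM in wild-type tumour livers, against 4.09, 5.65 and 7.67 CPM in wild-type control livers. Mdr2-/- groups overlapped with the higher median in controls, and wild-type groups overlapped slightly with the higher median in tumour livers. The effects were -0.47 ± 0.24 (adjusted p = 0.12) in Mdr2-/- and 0.96 ± 0.25 (adjusted p = 0.00472) in wild type, with a difference of -1.43 ± 0.34 (adjusted p = 0.00462). Col6a2, its neighbour and obligate partner, had -0.52 ± 0.27 (adjusted p = 0.123) and 1.22 ± 0.28 (adjusted p = 0.00221), with a difference of -1.74 ± 0.39 (adjusted p = 0.00299). Both rose between the control groups, by 2.19 ± 0.25 (adjusted p = 2.37e-07) and 2.31 ± 0.29 (adjusted p = 8.05e-07).

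Col6a3, the largest of the common type VI chains, was at 97, 114 and 176 CPM in Mdr2-/- tumour livers, against 50.9, 69.8 and 122 CPM in Mdr2-/- control livers. It was at 29.3, 35.8 and 76.9 CPM in wild-type tumour livers, against 12.4, 14.5 and 15.4 CPM in wild-type control livers. Wild-type tumour libraries all lay above their controls, and in Mdr2-/- 1 control library, at 122 CPM, reached into the tumour group. Col6a3 rose by 0.70 ± 0.21 (adjusted p = 0.0144) in Mdr2-/-, by 1.57 ± 0.22 (adjusted p = 8.33e-06) in wild type, by 2.45 ± 0.22 (adjusted p = 5.9e-09) between control groups and by 1.57 ± 0.21 (adjusted p = 5.02e-05) between tumour groups. The difference of the tumour effects was -0.88 ± 0.30 (adjusted p = 0.0339), -0.62 (adjusted p = 0.0714) without wild-type tumour library 3 and -0.89 (adjusted p = 0.0565) without the 2 libraries that lay apart. This call was lost in 7 of the 24 fits that each left out 1 library. In TPM, Col6a3 over Col6a1 was 2.58 ± 0.60 in Mdr2-/- tumour livers, 1.19 ± 0.41 in Mdr2-/- control livers, 1.43 ± 0.39 in wild-type tumour livers and 0.970 ± 0.263 in wild-type control livers. All Mdr2-/- tumour libraries exceeded all Mdr2-/- controls in this ratio.

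**Figure D4:**
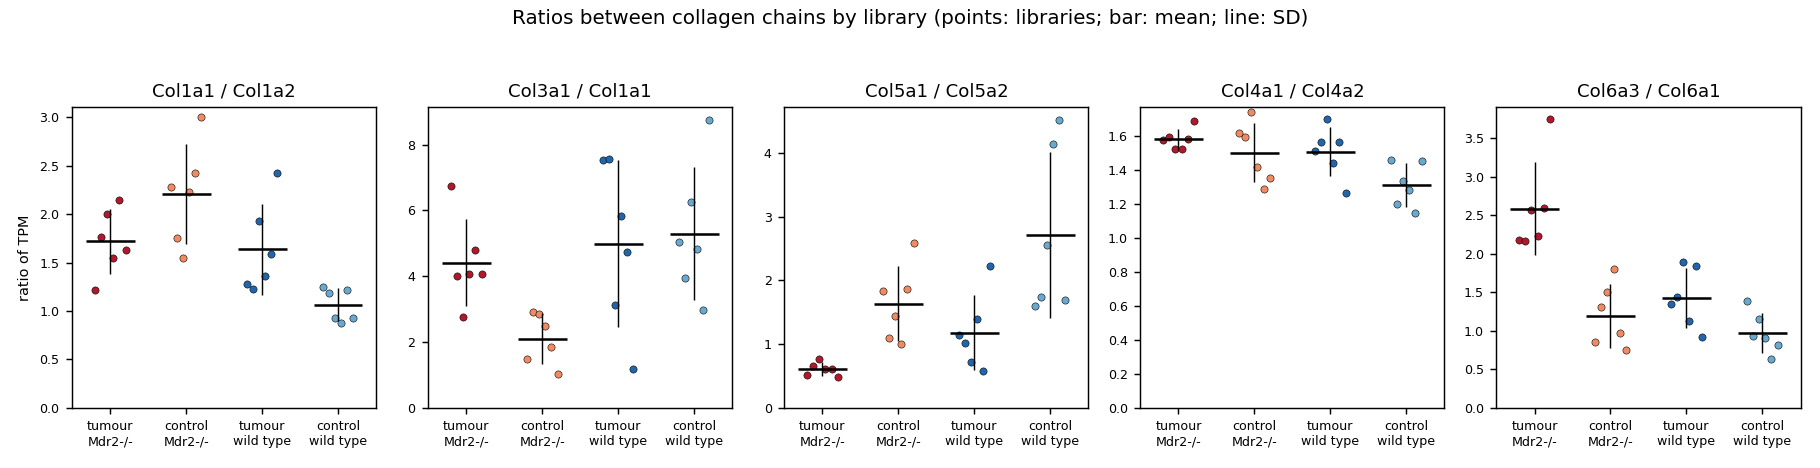
Ratios of TPM between pairs of collagen chains (y axes, linear) in each library (points) of the 4 groups, with the mean (bar) and SD (line, n = 6). Col5a1 over Col5a2 is lower, and Col6a3 over Col6a1 higher, in every Mdr2-/- tumour library than in every Mdr2-/- control, and Col4a1 over Col4a2 stays between 1.15 and 1.74 in all libraries.

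Col6a5, which can take the place of Col6a3, was at 17.8, 19.6 and 43.3 CPM in Mdr2-/- tumour livers, against 10.2, 16.2 and 24.4 CPM in Mdr2-/- control livers. It was at 3.96, 5.72 and 13.3 CPM in wild-type tumour livers, against 2.85, 3.58 and 4.93 CPM in wild-type control livers. Mdr2-/- libraries lay above wild-type ones both in controls and in tumour livers. The genotype changes were 2.12 ± 0.29 (adjusted p = 2.86e-06) and 1.93 ± 0.28 (adjusted p = 8.46e-05), and the tumour effects 0.65 ± 0.27 (adjusted p = 0.0616) in Mdr2-/- and 0.84 ± 0.29 (adjusted p = 0.0289) in wild type, the last being 0.52 (adjusted p = 0.154) without wild-type tumour library 3. That wild-type call was lost in 4 of the 24 fits that each left out 1 library. Col6a6, a similar chain, was higher in Mdr2-/- controls by 1.44 ± 0.35 (adjusted p = 0.00158) and in Mdr2-/- tumour livers by 1.11 ± 0.33 (adjusted p = 0.0298).

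Col8a1, a short network collagen of vessel walls, was at 9.32, 14.5 and 30.5 CPM in Mdr2-/- tumour livers, against 1.58, 2.65 and 6.51 CPM in Mdr2-/- control livers. It was at 2.20, 3.67 and 16.6 CPM in wild-type tumour livers, against 1.02, 1.26 and 1.82 CPM in wild-type control livers. Every tumour library lay above every control of its genotype. It rose by 2.36 ± 0.44 (adjusted p = 0.000406) in Mdr2-/- and 2.36 ± 0.46 (adjusted p = 0.000478) in wild type, with a difference of -0.01 ± 0.62 (adjusted p = 0.993). Between genotypes it was 1.23 ± 0.46 (adjusted p = 0.0303) in controls and 1.22 ± 0.42 (adjusted p = 0.0584) in tumour livers. The first of these was 0.88 (adjusted p = 0.112) without Mdr2-/- control library 4, and the second 1.70 (adjusted p = 0.00466) without wild-type tumour library 3. The call between controls was lost in 4 of the 24 fits that each left out 1 library. Col8a2, its partner, was at 0.0345 to 1.55 CPM over all libraries and was higher in every Mdr2-/- tumour library than in every wild-type tumour library, by 1.63 ± 0.51 (adjusted p = 0.0353). It had at least 10 counts in 11 libraries, all of the Mdr2-/- tumour livers among them, and without those it would not have been kept.

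Between the control groups 4 collagen genes fell in Mdr2-/- livers, Col11a2, Col20a1, Col10a1 and Col25a1. Col10a1, the network collagen of growth plate cartilage, was at 0.526, 1.12 and 1.80 CPM in Mdr2-/- tumour livers, against 0.267, 0.422 and 0.738 CPM in Mdr2-/- control livers. It was at 0.449, 0.875 and 2.51 CPM in wild-type tumour livers, against 0.611, 1.25 and 2.41 CPM in wild-type control livers. It was lower in Mdr2-/- than in wild-type controls, with a change of -1.59 ± 0.42 (adjusted p = 0.0028), and tumour livers differed by 1.41 ± 0.41 (adjusted p = 0.0114) in Mdr2-/- and -0.16 ± 0.39 (adjusted p = 0.796) in wild type, with a difference of 1.57 ± 0.57 (adjusted p = 0.042). The difference missed the threshold in 15 of the 24 fits that each left out 1 library, and was 1.24 (adjusted p = 0.117) without the 2 libraries that lay apart.

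Col25a1, a membrane-bound collagen of neurons, was at 0.117, 0.229 and 0.321 CPM in Mdr2-/- tumour livers, against 0.0351, 0.128 and 0.217 CPM in Mdr2-/- control livers. It was at 0.204, 0.365 and 0.519 CPM in wild-type tumour livers, against 0.473, 0.517 and 0.611 CPM in wild-type control livers. Its highest count was 12, so that these levels rest on few reads. It had at least 10 counts in 10 libraries, all of the wild-type controls among them, and without those it would not have been kept. All Mdr2-/- control libraries lay below all wild-type controls, with a change of -2.05 ± 0.34 (adjusted p = 3.1e-05), and the difference of tumour effects was 1.47 ± 0.47 (adjusted p = 0.023), or 1.35 (adjusted p = 0.0629) without the 2 libraries that lay apart. Col13a1, a membrane-bound collagen of muscle and nerve contacts, was at 1.25, 1.76 and 2.33 CPM in Mdr2-/- tumour livers, against 1.90, 2.95 and 3.41 CPM in Mdr2-/- control livers. It was at 2.04, 2.73 and 3.85 CPM in wild-type tumour livers, against 2.69, 3.44 and 4.72 CPM in wild-type control livers. It fell in Mdr2-/- tumour livers, with a change of -0.70 ± 0.19 (adjusted p = 0.00782), and differed by -0.38 ± 0.19 (adjusted p = 0.133) in wild type and by -0.64 ± 0.19 (adjusted p = 0.0303) between tumour groups. Both calls were lost on the deposited TPM, where limma on log2(TPM + 1) gave -0.31 (adjusted p = 0.0647) and -0.18 (adjusted p = 0.331), and the second was -0.53 (adjusted p = 0.0816) without the 2 libraries that lay apart.

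Of the membrane-bound remainder, Col23a1 rose by 0.83 ± 0.31 (adjusted p = 0.0454) in wild-type tumour livers and by 0.81 ± 0.31 (adjusted p = 0.0313) between control groups, at 0.164 to 1.37 CPM. Both calls were lost without some single libraries, and the first was 0.64 (adjusted p = 0.133) without the 2 libraries that lay apart. Col17a1, an anchor of epithelial cells, was the only collagen gene with no call in any of the 5 comparisons, at 0.234 to 0.914 CPM, with -0.28 ± 0.28 (adjusted p = 0.435) in Mdr2-/- and 0.14 ± 0.29 (adjusted p = 0.755) in wild type.

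Within wild-type tumour livers the collagen levels were uneven. Library 3 was the highest of its group in 21 of the 34 genes, and no other library of the group in more than 5. That library also had the highest summed portal fibroblast markers, 62.2 CPM against 18.5 to 30.6 CPM in the other 5, and the highest summed myofibroblast markers, 77.4 CPM against 29.3 to 53.5 CPM. Its summed stellate cell markers were the lowest of the group, 562 CPM against 604.2 to 737.3 CPM, as were its hepatocyte markers, 52410 CPM against 60860 to 91320 CPM. Its bile duct markers, a sum mostly of Spp1, were the highest, 1388 CPM against 160.4 to 1335 CPM. Their part in the collagen levels was not tested. In Mdr2-/- control livers library 6 was the highest in 18 genes and library 4 in 11. In Mdr2-/- tumour livers libraries 3 and 6 were the highest in 15 and 10.

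Genes for the proteins that make, mature and bind collagen were counted in 5 lists. Of 14 genes for enzymes that modify prolines and lysines, 2 rose and 2 fell in Mdr2-/- tumour livers, against 17.9% and 17.0% of all genes, with a list median of -0.02. In wild-type tumour livers 5 rose and 0 fell, against 16.9% and 11.5% of all genes, with a median of 0.12. Plod2, which hydroxylates lysines for stable crosslinks, rose in both, by 1.31 ± 0.33 (adjusted p = 0.00516) in Mdr2-/- and 1.57 ± 0.36 (adjusted p = 0.00184) in wild type, and so did P4ha3, a prolyl hydroxylase subunit, by 2.04 ± 0.47 (adjusted p = 0.00238) in Mdr2-/- and 1.88 ± 0.54 (adjusted p = 0.00994) in wild type. P4hb, the other subunit, and Plod1, a lysyl hydroxylase, fell in Mdr2-/-, with changes of -0.43 ± 0.15 (adjusted p = 0.0289) and -0.50 ± 0.18 (adjusted p = 0.0342). P3h3 and P3h2, which modify a different proline position, rose in wild-type tumour livers, by 0.79 ± 0.19 (adjusted p = 0.0026) and 1.27 ± 0.29 (adjusted p = 0.0019), and their differences between genotypes were -0.85 ± 0.26 (adjusted p = 0.0189) and -1.20 ± 0.39 (adjusted p = 0.0277). Between control groups 6 of the 14 rose and 1, Colgalt2, fell, against 26.2% and 24.3% of all genes.

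Of 9 genes for procollagen folding and export, 1 rose and 2 fell in Mdr2-/- tumour livers, against 17.9% and 17.0% of all genes, with a median of -0.26. In wild-type tumour livers 3 rose and 3 fell, against 16.9% and 11.5%, with a median of -0.02. Serpinh1, the collagen chaperone HSP47, averaged 79.5 ± 13.5 and 51.9 ± 15.2 CPM in Mdr2-/- tumour and control livers and 37.6 ± 19.5 and 18.5 ± 3.82 CPM in wild-type tumour and control livers. It rose by 0.61 ± 0.24 (adjusted p = 0.0447) in Mdr2-/- and 1.03 ± 0.24 (adjusted p = 0.00229) in wild type, and by 1.49 ± 0.24 (adjusted p = 2.62e-05) between control groups. Fkbp10, a collagen-folding isomerase, had 0.17 ± 0.27 (adjusted p = 0.631) in Mdr2-/- and 1.50 ± 0.30 (adjusted p = 0.000583) in wild type, with a difference of -1.32 ± 0.40 (adjusted p = 0.0191). The export genes Mia3, Sec23a and Sec24d fell in wild-type tumour livers, with changes of -0.68 ± 0.18 (adjusted p = 0.00565), -0.46 ± 0.12 (adjusted p = 0.00616) and -0.56 ± 0.16 (adjusted p = 0.00827).

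Of 13 genes for propeptide removal and crosslinking, 11 were tested. Of these 3 rose and 0 fell in Mdr2-/- tumour livers, against 17.9% and 17.0% of all genes, with a median of 0.11. In wild-type tumour livers 8 rose and 0 fell, against 16.9% and 11.5%, with a median of 0.94. Lox, the founding lysyl oxidase, averaged 14.8 ± 5.78 and 3.95 ± 2.88 CPM in Mdr2-/- tumour and control livers and 6.69 ± 6.08 and 0.903 ± 0.251 CPM in wild-type tumour and control livers. It rose by 1.90 ± 0.44 (adjusted p = 0.00295) in Mdr2-/- and 2.90 ± 0.50 (adjusted p = 0.000134) in wild type. Loxl2, its relative, had 0.64 ± 0.26 (adjusted p = 0.0622) in Mdr2-/- and 2.14 ± 0.29 (adjusted p = 5.19e-06) in wild type, with a difference of -1.51 ± 0.39 (adjusted p = 0.00727). Adamts2 and Pcolce both act in the removal of procollagen ends. Their tumour effects were -0.18 ± 0.23 (adjusted p = 0.548) and -0.11 ± 0.20 (adjusted p = 0.678) in Mdr2-/-. In wild type they were 1.27 ± 0.24 (adjusted p = 0.000342) and 1.07 ± 0.20 (adjusted p = 0.000358). The differences were -1.45 ± 0.33 (adjusted p = 0.0034) and -1.19 ± 0.28 (adjusted p = 0.00464). Between control groups 8 of the 11 rose and 1, Pcolce2, fell, against 26.2% and 24.3% of all genes.

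Of 10 genes for proteins that bind fibrils, 3 rose and 2 fell in Mdr2-/- tumour livers, against 17.9% and 17.0% of all genes, with a median of -0.20. In wild-type tumour livers 5 rose and 0 fell, against 16.9% and 11.5%, with a median of 0.60. Sparc, a collagen-binding glycoprotein, averaged 741 ± 119 and 316 ± 90.2 CPM in Mdr2-/- tumour and control livers and 529 ± 139 and 173 ± 18.1 CPM in wild-type tumour and control livers, with rises of 1.23 ± 0.18 (adjusted p = 2.87e-05) in Mdr2-/- and 1.61 ± 0.18 (adjusted p = 3.29e-07) in wild type. Postn, a matrix protein of activated stroma, rose by 1.12 ± 0.22 (adjusted p = 0.000793) in Mdr2-/- and 1.60 ± 0.23 (adjusted p = 1.07e-05) in wild type, and Lum, a fibril-spacing proteoglycan, by 0.58 ± 0.22 (adjusted p = 0.0381) in Mdr2-/- and 1.02 ± 0.22 (adjusted p = 0.00109) in wild type. Tnxb, a tenascin, and Fn1, fibronectin, fell in Mdr2-/-, with changes of -1.07 ± 0.26 (adjusted p = 0.0041) and -0.71 ± 0.27 (adjusted p = 0.0449). Of 10 collagen receptor genes, 1 rose and 0 fell in Mdr2-/- tumour livers, against 17.9% and 17.0% of all genes, with a median of 0.34. It was Itga10, at 0.567 ± 0.247 CPM in tumour livers and 0.214 ± 0.102 CPM in controls. In wild-type tumour livers 5 receptor genes rose and 1 fell, against 16.9% and 11.5%, with a median of 0.72. Ddr1, a receptor kinase of epithelial cells, had 0.40 ± 0.31 (adjusted p = 0.3) in Mdr2-/- and 1.58 ± 0.33 (adjusted p = 0.000809) in wild type, and Mrc2, which takes up collagen for breakdown, 0.33 ± 0.24 (adjusted p = 0.288) in Mdr2-/- and 1.0 ± 0.26 (adjusted p = 0.00549) in wild type.

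Markers of the cells that could hold these RNAs were counted beside the shares of all genes, which were 17.9% risen and 17.0% fallen in Mdr2-/- tumour livers, 16.9% and 11.5% in wild-type tumour livers, 26.2% and 24.3% in Mdr2-/- controls, and 7.13% and 4.0% between the tumour groups. Summed portal fibroblast markers were at 50.8 to 88.5 CPM in Mdr2-/- tumour livers and 43.8 to 62.2 CPM in Mdr2-/- control livers, and at 18.5 to 62.2 CPM in wild-type tumour livers and 15.6 to 20.6 CPM in wild-type control livers. Of 7 tested, 3 rose and 1 fell in Mdr2-/- tumour livers, 5 rose in wild-type tumour livers and 6 rose in Mdr2-/- controls. Between the tumour groups 6 of the 7, as well as 8 of 10 bile duct markers and 1 of 8 myofibroblast markers, were higher in Mdr2-/-. Summed myofibroblast markers were at 57.9 to 79.2 CPM in Mdr2-/- tumour livers and 43.3 to 64.0 CPM in Mdr2-/- control livers, and at 29.3 to 77.4 CPM in wild-type tumour livers and 26.8 to 48.3 CPM in wild-type control livers, and 4 of 8 rose in Mdr2-/- tumour livers, 3 in wild-type tumour livers and 2 in Mdr2-/- controls. Stellate cell markers overlapped between all groups, at 562 to 969.5 CPM, and of 10, 1 rose and 4 fell in Mdr2-/- tumour livers, against 17.9% and 17.0% of all genes. The overlapping sums held opposite changes. Rgs5 rose, with means of 394.3 CPM in Mdr2-/- tumour livers and 164.6 CPM in Mdr2-/- control livers. Reln, at 174.3 and 274.4 CPM, fell, as did Ecm1, Lhx2 and Ngfr. In wild-type tumour livers 1 of the 10 rose, against 16.9%, and in Mdr2-/- controls 5 rose and 1 fell, against 26.2% and 24.3%.

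Bile duct markers summed to 1111 to 4038 CPM in Mdr2-/- tumour livers, 65.3 to 332.7 CPM in Mdr2-/- control livers, 160.4 to 1388 CPM in wild-type tumour livers and 53.2 to 133.9 CPM in wild-type control livers. Most of each sum was 1 gene, Spp1, with means of 2174, 109.8, 640.6 and 71.2 CPM in that order. Sox9, the next in Mdr2-/- tumour livers, averaged 36.7 CPM there. Of 10 bile duct markers, 8 rose in Mdr2-/- tumour livers, 9 in wild-type tumour livers and 8 in Mdr2-/- controls. Hepatocyte markers were at 29980 to 58150 CPM in Mdr2-/- tumour livers, 78320 to 95890 CPM in Mdr2-/- control livers, 52410 to 91320 CPM in wild-type tumour livers and 98940 to 129800 CPM in wild-type control livers, with 8 of 10 fallen in Mdr2-/- tumour livers, 6 in wild-type tumour livers, and 3 fallen and 1 risen in Mdr2-/- controls. Macrophage markers were at 553 to 1198 CPM in Mdr2-/- tumour livers, 532.6 to 988.6 CPM in Mdr2-/- control livers, 375.9 to 644.1 CPM in wild-type tumour livers and 296.6 to 418.3 CPM in wild-type control livers. Endothelial markers were at 365.4 to 485.9 CPM in Mdr2-/- tumour livers, 479.5 to 589.5 CPM in Mdr2-/- control livers, 506.2 to 662.5 CPM in wild-type tumour livers and 471.7 to 571.1 CPM in wild-type control livers. Mesothelial markers were at 22.7 to 54.5 CPM in Mdr2-/- tumour livers, 7.84 to 15.8 CPM in Mdr2-/- control livers, 9.94 to 31.7 CPM in wild-type tumour livers and 4.88 to 10.9 CPM in wild-type control livers. This list shares Krt19 with the bile duct list. Krt19 averaged 16.3 CPM in Mdr2-/- tumour livers and 4.04 CPM in Mdr2-/- control livers, and Gpm6a 14.6 and 2.49 CPM. All 10 hepatocyte markers were counted in every library, and Cnn1, Sctr and Gli1 each had 0 counts in at least 1. The part of these shifts in the collagen results was not tested.

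Nuclear noncoding RNA, the summed share of 7 transcripts such as Malat1 and Neat1, did not overlap between the Mdr2-/- groups. With this share as a covariate 4 collagen genes rose in Mdr2-/- tumour livers, Col4a5, Col9a3, Col12a1 and Col16a1, and 0 fell. The differences of the tumour effects of Col4a2, Col4a4, Col5a1, Col10a1 and Col25a1 missed the threshold. The tumour and this share cannot be told apart in Mdr2-/- livers. The share was 2.30 to 6.51% in wild-type tumour livers and 2.91 to 5.42% in wild-type control livers.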

How the data were processed

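The authors deposited raw counts per gene and TPM values for each library. Per the labels' protocols, ribosomal RNA was depleted from liver RNA, with a kit named for bacteria, and libraries were sequenced in pairs. The submitters' processing notes name mm39 and DESeq2. The aligner, counter, annotation and strand were not given in the sources used. Rows without a symbol, 0.0111 to 0.0178% of counts, were left out. Counts were fitted in edgeR 4.0.16 (R 4.3.3) with a minimum count of 10, TMM scaling, robust quasi-likelihood and 4 group means, with Benjamini-Hochberg adjustment over all genes. Standard errors come from the fitted contrast and its F statistic. The fit was checked on simulated counts. Alternatives used DESeq2 1.42.0 and limma 3.58.1 on log2(TPM + 1) and log2(TPM + 0.1). The summed TPM of a class and ratios of TPM were computed from the deposited values. Limits for a count of 0 (3 counts) cover counting error only.

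Collagen members, classes and the lists of collagen-processing and marker genes were chosen with earlier results of these data known. Genes described in full were the most abundant and the most changed by a fixed rule on TPM and on changes in the 5 comparisons. Replicates were numbered in accession order. Sequences are from RefSeq tables on GRCm38.p6, whose coordinates are not those of mm39. The level of 1 marker gene is not reported here.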

Additional observations from a re-analysis of the deposited data

Results flagged for a closer look

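Libraries far from their group were marked by a rule that by chance gives about 1 in 20 for independent, symmetric values. It was used on linear CPM, which favours high marks, and the genes share libraries, so that rate is no expectation here. Of 136 combinations of a collagen gene and a group, 16 had 1 library far above the other 5 of its group, and none had 1 far below. In wild-type tumour library 3 these were Col1a2 at 105.4 CPM (others 30.6 to 57.5), Col6a3 at 76.9 CPM (29.3 to 43.9), Col6a5 at 13.3 CPM (3.96 to 6.00), Col9a3 at 0.679 CPM (0.0440 to 0.276) and Col15a1 at 34.9 CPM (5.84 to 15.6). That library also had the highest portal fibroblast and myofibroblast marker sums of its group and the lowest stellate cell marker sum, and the part of those in its collagen levels was not tested. In Mdr2-/- tumour library 6 they were Col5a2 at 48.5 CPM (34 to 37.1), Col8a1 at 30.5 CPM (9.32 to 15.5) and Col8a2 at 1.55 CPM (0.405 to 0.788). In Mdr2-/- control library 4 they were Col3a1 at 483.5 CPM (164.3 to 249.4), Col5a2 at 31.2 CPM (11.4 to 15.3) and Col8a1 at 6.51 CPM (1.58 to 3.43). The others stood alone in their libraries. They were Col18a1 at 1023 CPM in wild-type tumour library 6 (366.6 to 483), Col23a1 at 1.37 CPM in Mdr2-/- tumour library 4 (0.679 to 0.936), Col11a2 at 0.650 CPM in Mdr2-/- control library 2 (0.200 to 0.351), Col11a1 at 0.493 CPM in wild-type control library 2 (0.227 to 0.301) and Col27a1 at 7.08 CPM in wild-type control library 1 (3.27 to 4.49).

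The tumour effect differed between the genotypes, by the edgeR test of the difference at an adjusted p under 0.05, for 14 collagen genes. The difference on the log2 scale, Mdr2-/- minus wild type, was -2.87 for Col1a1, -2.16 for Col5a3, -1.74 for Col1a2, -1.74 for Col6a2 and -1.60 for Col4a4. It was -1.43 for Col6a1, -1.35 for Col3a1, -1.24 for Col4a1, -1.12 for Col4a2 and -1.11 for Col5a1. It was -0.88 for Col6a3 and -0.64 for Col14a1, and 1.57 for Col10a1 and 1.47 for Col25a1.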

How the results depend on the processing

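All alternatives were listed together with the main analysis. Of the called values, those of 4 of 15 genes in the Mdr2-/- tumour comparison, 17 of 21 in the wild-type one, 8 of 14 for the difference, 22 of 27 between controls and 7 of 16 between tumour groups kept their call under every alternative run. Calls in Mdr2-/- tumour livers came to 4 (4 higher, 0 lower) with the nuclear RNA share as a covariate, and lower calls to 1 with total library sizes or limma on TPM. Wild-type tumour livers had 1 lower call with the number in the sample title as a covariate and without the 2 libraries that lay apart. The difference had 9 calls with limma on TPM and without those 2 libraries. Its higher calls were 1 with total library sizes, limma on TPM or the title number, and 0 with no filter, a stricter one, the nuclear RNA share or without the 2 libraries. Between controls, lower calls were 2 with total library sizes, no filter or log2(TPM + 0.1), 1 with log2(TPM + 1) and 0 with the stricter filter. Between tumour groups 10 genes were called with no filter or the title number, and 9, all higher, with those 12 libraries alone, and the lower call was 0 in these and with total library sizes, limma on TPM or without the 2 libraries. Col18a1 reversed in Mdr2-/- to 0.10 with the nuclear RNA share. Causes of these shifts were not tested.

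Leaving out each library in turn gave 12 to 16 calls in Mdr2-/- tumour livers (10 to 13 higher, 2 to 5 lower) and 19 to 23 in wild-type ones (19 to 22, 0 to 1). It gave 12 to 15 for the difference (1 to 4, 11 to 13), 24 to 28 between controls (21 to 23, 2 to 5) and 9 to 20 between tumour groups (8 to 19, 0 to 1). Class sums on the log2 scale were -0.0598 to 0.027 for FACIT in Mdr2-/- tumour livers, where 0.0176 and 0.027 were reversed, and -0.15 to 0.41 for basement membrane in wild type, reversed at -0.15 without library 6. Summed in CPM in place of TPM, basement membrane was reversed, to -0.14 in wild-type tumour livers and to -0.0191 between tumour groups. In TPM its means were 199.0 in wild-type tumour, 173.2 in wild-type control and 230.8 in Mdr2-/- tumour livers. FACIT in CPM was 0.48 in wild-type tumour livers, 0.57 between controls and 0.0036 between tumour groups, and fibrillar was 2.29 between controls. Total library sizes moved the median of all genes by 0.25 to 0.30 in the 4 comparisons of groups and by -0.05 for the difference, limma on TPM by 0.10 to 0.45 and by -0.18 to -0.16, and upper-quartile factors by -0.05 to 0.12. No paired analysis was possible because the labels number no replicates. Genes with few counts, such as Col25a1, Col9a3 and Col11a1, are limited by depth.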
